A study of Mus musculus with 40 samples.

Results

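The 10 genes described here encode enzymes that make serine, transfer its one-carbon unit to folate in mitochondria and cytosol, and synthesize asparagine and proline. They are Phgdh, Psat1, Psph, Shmt1, Shmt2, Mthfd2, Mthfd1l, Aldh1l2, Asns and Pycr1, and they were taken by gene symbol from 22844 genes listed, as a pathway list that was drawn up with earlier results of these data known. All 10 were among the 13543 genes expressed highly enough to be tested.

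mRNA was sequenced from whole extensor digitorum longus (EDL), a fast hindlimb muscle of the mouse, in 8 groups of 5 mice. All mice carried floxed Tsc1 alleles (strain label Tsc1tm1Djk/J). Control littermates (CON) had the genotype label Tsc1fl/fl, whereas TSCmKO mice lacked Tsc1 in skeletal muscle fibers, so that the kinase complex mTORC1, which TSC1 restrains, stayed active there. The driver of Cre is not given in the sources used here. Mice of 3 and 9 months received intraperitoneal vehicle (3mCON, 3mTSCmKO, 9mCON, 9mTSCmKO) or the mTORC1 inhibitor rapamycin (3mCON+RM, 3mTSCmKO+RM, 9mCON+RM, 9mTSCmKO+RM) for 3 days. The labels give 4 mg per kg and the study's text a higher dose, so that the dose is uncertain. The muscle holds vessels, nerve, connective tissue and other cells that keep Tsc1, and in bulk tissue fewer cells of a type and less RNA per cell cannot be told apart.

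Serine is built from a glycolytic intermediate in a short chain, in which phosphoglycerate dehydrogenase (PHGDH) commits the carbon, phosphoserine aminotransferase (PSAT1) adds the amino group and phosphoserine phosphatase (PSPH) releases serine. Serine hydroxymethyltransferases then pass a carbon from serine to tetrahydrofolate, and the mitochondrial folate enzymes carry it to formate, which the cytosol uses for purine and thymidylate synthesis. In many proliferating cells mTORC1 raises several of these genes through the transcription factor ATF4, which also drives asparagine synthetase (ASNS) and the uptake of amino acids. In muscle, mitochondrial folate enzymes and other ATF4 targets are known to rise in mitochondrial disease.

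Total counts ran from 8883870 to 35224669 per library. Tsc1, the targeted gene, fell from 84.1 to 134 CPM (counts scaled to library size) in 3mCON to 26.5 to 30.7 CPM in 3mTSCmKO, and from 51.3 to 122 CPM in 9mCON to 24.4 to 35.8 CPM in 9mTSCmKO. Rapamycin lowered it further in TSCmKO, by -0.49 on the log2 scale at 9 and 3 months (edgeR quasi-likelihood test, adjusted p = 0.0249 and 0.0311). In CON the rapamycin change was -0.07 at 9 and -0.58 at 3 months (same test, adjusted p = 0.843 and 0.099). The 7 fast-fiber markers were detected in every group, with summed levels of 123421 to 177432 TPM (abundance scaled to transcript length and library size). Insert sizes of the 3-month libraries ran from 175 to 239 nt and those of the 9-month libraries from 223 to 308 nt, so that age and library preparation cannot be told apart.

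Levels between genes were compared by TPM, which accounts for transcript length. In 9mCON, Shmt2 was highest at 24.3 TPM (mean of 5 libraries, range 21.9 to 27.8), followed by Psph at 15.7 TPM and Shmt1 at 8.33 TPM, with no overlap between these neighbours. Mthfd2, Aldh1l2, Pycr1, Phgdh, Asns and Psat1 followed at 4.44 to 1.26 TPM, each overlapping the next, and Mthfd1l was lowest at 0.342 TPM. The order differed in vehicle-treated TSCmKO muscle. Mthfd2 stood first in 9mTSCmKO at 39.4 TPM (35.0 to 44.0), above Shmt2 at 23.8 TPM (15.9 to 29.1) without overlap, and Psat1 and Asns reached 11.6 and 9.03 TPM. In 3mTSCmKO Mthfd2 was also first by mean, at 31.3 TPM, but its range overlapped that of Shmt2. Mthfd2 made up 35.8% of the summed mean TPM of the 10 genes in 9mTSCmKO and 6.96% in 9mCON.

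The sum over the 10 genes was 63.8 ± 5.85 TPM (SD, n = 5) in 9mCON and 110.02 ± 9.58 TPM in 9mTSCmKO, with ranges of 58.6 to 71.1 and 94.5 to 118 TPM that did not overlap. It was 62.5 ± 4.41 TPM in 9mTSCmKO+RM, with a range of 56.3 to 67.9 TPM that overlapped that of 9mCON. The like sums held unlike parts. Mean levels in 9mTSCmKO+RM and 9mCON were 14.9 and 4.44 TPM for Mthfd2 and 2.69 and 1.26 TPM for Psat1. In the other direction, they were 7.46 and 15.7 TPM for Psph and 4.10 and 8.33 TPM for Shmt1. At 3 months the sum was 67.7 ± 6.33 TPM in 3mCON, 90.6 ± 9.94 TPM in 3mTSCmKO and 66.4 ± 5.53 TPM in 3mTSCmKO+RM.

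**Figure D1:**
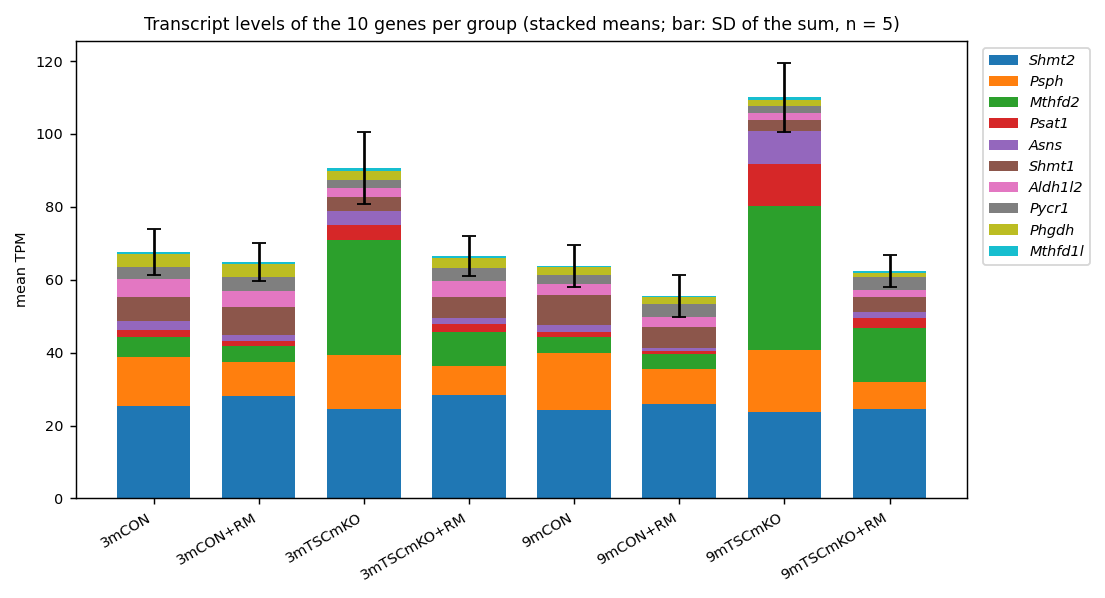
Stacked mean TPM of the 10 genes (vertical axis) in the 8 groups (horizontal axis), with the SD of the summed TPM over 5 mice as the error bar. The sum is highest in 9mTSCmKO at 110.02 TPM, and the Mthfd2 segment grows from 4.44 TPM in 9mCON to 39.4 TPM in 9mTSCmKO.

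The first comparison asks what loss of Tsc1 in muscle fibers did to these genes. At 9 months 4 of the 10 genes were higher and 3 lower in 9mTSCmKO than in 9mCON (edgeR quasi-likelihood test, Benjamini-Hochberg adjusted p under 0.05), where 37.9% of all genes tested were called, 19.1% higher and 18.9% lower. Mthfd2, Psat1, Asns and Mthfd1l were higher, and Shmt1, Aldh1l2 and Pycr1 lower. Phgdh, Psph and Shmt2 did not pass. At 3 months 2 were higher (Mthfd2 and Psat1) and 3 lower (Aldh1l2, Shmt1 and Pycr1), where 19.8% of genes were called, 11.4% higher and 8.32% lower. The median log2 fold change of the 10 genes was -0.05 at 9 months and 0.05 at 3 months, beside -0.02 over all genes tested at each age. The second comparison asks which of these differences changed within 3 days of rapamycin. In TSCmKO muscle 1 gene rose and 4 fell at 9 months, where 32.6% of all genes were called, 15.8% higher and 16.8% lower. At 3 months 2 rose and 4 fell, where 23.6% were called, 10.6% higher and 13% lower. Where groups are said not to overlap with rapamycin in TSCmKO, this held for 8.0% of all genes with higher and 7.15% with lower values at 9 months, and for 9.53% and 11.6% at 3 months.

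**Figure D2:**
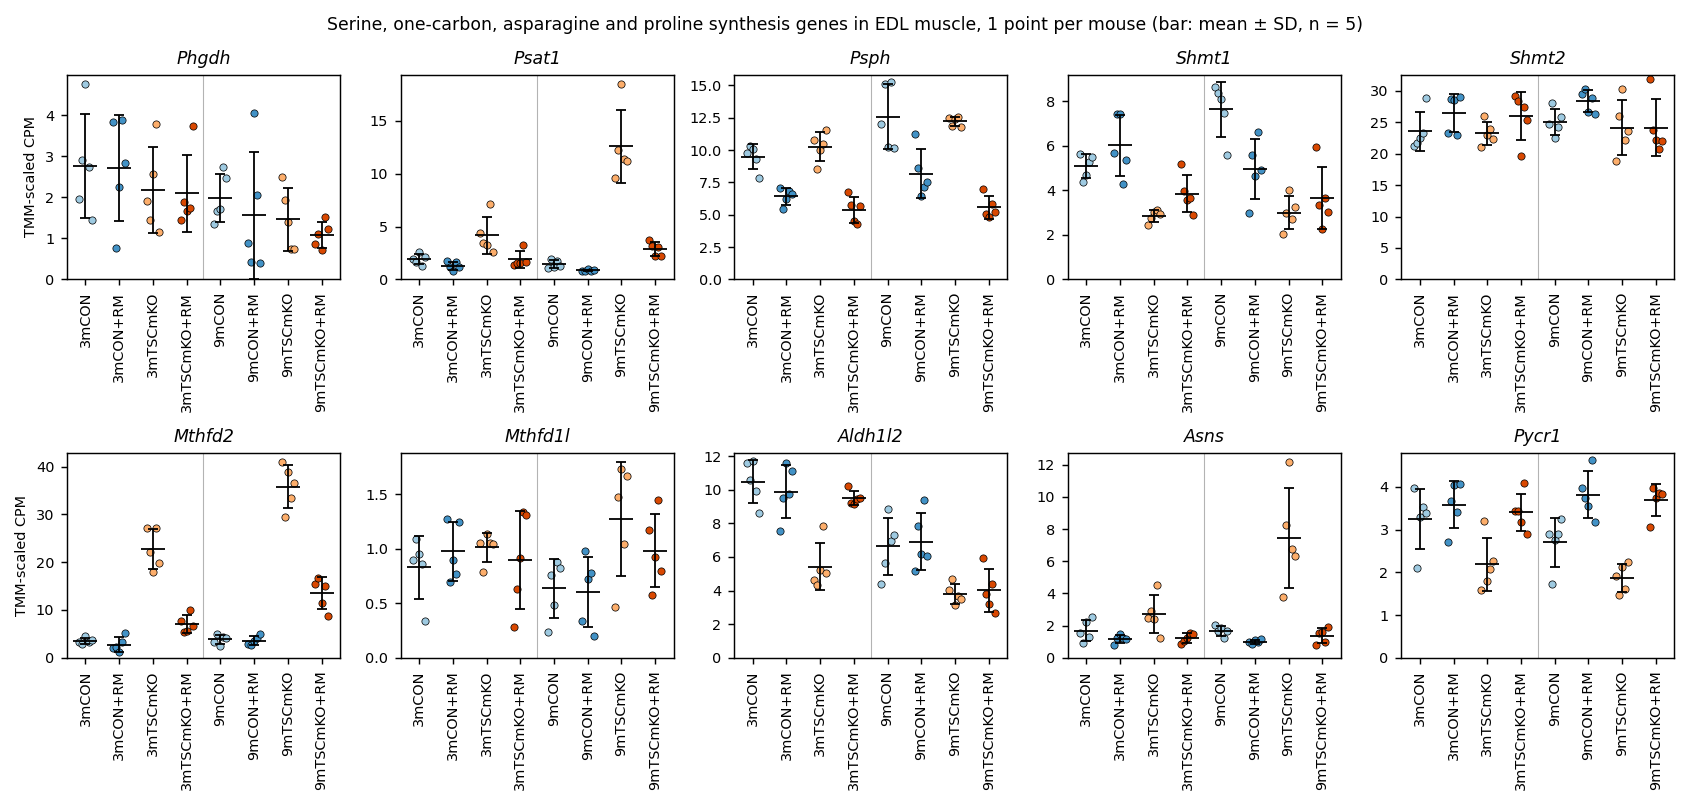
TMM-scaled CPM of each gene (vertical axis, starting at 0, 1 panel per gene) in the 8 groups (horizontal axis), with 1 point per mouse and the mean ± SD of 5 mice in black. Mthfd2, Psat1 and Asns are highest in 9mTSCmKO, Psph is lower in every rapamycin group than in its vehicle group by mean, and Pycr1 is low in both vehicle-treated TSCmKO groups.

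Phgdh (chr3:98313170-98339990, minus strand, GRCm38), the entry enzyme of serine synthesis, was called in none of the comparisons when all groups were fitted together. Its mean was 1.99 ± 0.586 CPM in 9mCON and 1.47 ± 0.763 CPM in 9mTSCmKO, a log2 difference of -0.46 ± 0.46 (SE) with a 95% interval of -1.36 to 0.45. The interval held both a fall and a rise. In 9mTSCmKO+RM against 9mCON the difference was -0.89 (adjusted p = 0.159), and it passed when only these groups were fitted (-0.88, adjusted p = 0.0391). At 3 months the log2 difference was -0.35 with an interval of -1.20 to 0.49. Relative to its mean, Phgdh varied more between mice of a group than Psat1 and Psph in each of the 8 groups. In 9mCON+RM its 5 libraries held 0.878, 0.411, 4.05, 2.06 and 0.405 CPM. Replicate 3, the highest, also had the highest summed Schwann cell markers of its group (178 TPM) and slow fiber markers (379 TPM), and replicate 5, the lowest, had the lowest Schwann cell (26.1 TPM) and fibroblast markers (97.7 TPM). Other libraries did not follow this order. Replicate 2, at 0.411 CPM, held 83.0 TPM of Schwann cell and 158 TPM of slow fiber markers. Replicate 4, at 2.06 CPM, held 82.4 and 117 TPM and had the highest fibroblast sum (459 TPM). The part of these cells in the spread of Phgdh was not tested.

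Psat1 (chr19:15904678-15947337, minus strand), the second enzyme of the chain, rose in TSCmKO muscle at both ages. At 9 months the 5 libraries held 1.06, 1.89, 1.14, 1.75 and 1.24 CPM in 9mCON, and 9.57, 12.2, 18.5, 11.4 and 11.2 CPM in 9mTSCmKO. All 9mTSCmKO libraries were above all 9mCON libraries, and the fold was 8.86 (log2 3.15 ± 0.26, adjusted p = 2.8e-12). At 3 months the values were 1.9597, 1.64, 2.60, 1.28 and 2.11 CPM in 3mCON and 4.35, 3.46, 3.29, 7.13 and 2.56 CPM in 3mTSCmKO, a fold of 2.19 (log2 1.13 ± 0.25, adjusted p = 0.00101). The lowest 3mTSCmKO library lay just under the highest 3mCON library, so that the groups overlapped. The genotype difference was larger at 9 than at 3 months by 2.02 ± 0.36 on the log2 scale (interaction, adjusted p = 0.000561). In that interaction 2 of the 10 genes were called, Psat1 and Asns, both positive, beside 4.94% of all genes, 3.01% positive and 1.93% negative.

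Rapamycin lowered Psat1 in TSCmKO muscle. In 9mTSCmKO+RM the 5 libraries held 3.76, 3.11, 2.23, 3.03 and 2.26 CPM, all below the 9mTSCmKO libraries, and the log2 change was -2.13 ± 0.25 (adjusted p = 2e-08). This was still above 9mCON in every library, by a fold of 2.02 (adjusted p = 0.0036). In 3mTSCmKO+RM Psat1 held 1.39, 1.55, 1.51, 3.30 and 1.66 CPM, a log2 change of -1.14 ± 0.25 from 3mTSCmKO (adjusted p = 0.000666), and its log2 difference from 3mCON was -0.01 with a 95% interval of -0.53 to 0.51. In control muscle at 9 months Psat1 was 0.774 to 0.941 CPM with rapamycin, below every 9mCON library, but the change of -0.74 on the log2 scale did not pass (adjusted p = 0.122). The rapamycin change at 9 months was larger in TSCmKO than in CON by -1.40 ± 0.40 (adjusted p = 0.0325). That difference lost its call in 6 of 20 fits that each left out 1 library, and with insert size as a term (-1.30).

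Psph (chr5:129765558-129787449, minus strand), the last enzyme of the chain, did not follow Psat1. Its mean was 12.6 ± 2.51 CPM in 9mCON and 12.2 ± 0.344 CPM in 9mTSCmKO, a log2 difference of -0.04 with a 95% interval of -0.31 to 0.23, and the interval at 3 months was -0.15 to 0.39. A genotype change of the size seen for Psat1 lies far outside both intervals. Rapamycin, by contrast, lowered Psph in both genotypes. In 9mTSCmKO the libraries held 12.5, 11.9, 12.4, 12.5 and 11.8 CPM, and in 9mTSCmKO+RM 6.96, 5.07, 4.79, 5.86 and 5.18 CPM. The groups did not overlap, and the log2 change was -1.14 ± 0.14 (adjusted p = 1.16e-07). In 3mTSCmKO+RM Psph held 4.28 to 6.77 CPM against 8.56 to 11.6 CPM in 3mTSCmKO, again without overlap (log2 -0.93 ± 0.14, adjusted p = 4.1e-06).

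In control muscle Psph held 11.99, 15.1, 10.2, 15.3 and 10.2 CPM in 9mCON and 11.2, 8.59, 6.44, 7.13 and 7.49 CPM in 9mCON+RM. The groups overlapped through 1 rapamycin library, and the log2 change was -0.62 ± 0.14 (adjusted p = 0.00319). In that comparison 2 of the 10 genes were called, Psph and Shmt1, both lower, beside 11.8% of all genes, 5.03% higher and 6.82% lower. Fitted on the groups of the comparison only, neither passed (-0.63 each). All 5 fibroblast markers were lower there too, with sums of 592 to 1211 TPM in 9mCON and 97.7 to 459 TPM in 9mCON+RM. So were 5 of 6 macrophage markers (45.9 to 139 and 12.1 to 42.5 TPM), 3 of 4 tendon markers (30.2 to 257 and 10.8 to 30.9 TPM) and 1 of 5 Schwann cell markers, and their part in these falls was not tested. In 3mCON Psph held 9.80, 10.3, 10.1, 9.31 and 7.86 CPM and in 3mCON+RM 7.05, 5.40, 6.18, 6.87 and 6.60 CPM. The groups did not overlap, as in 2.72% of genes with lower and 2.69% with higher values, and the change was -0.56 ± 0.14, but the adjusted p was 0.0532. None of the 10 genes was called there, where 92 of 13543 genes (0.679%) were called, 0.362% higher and 0.318% lower. At an unadjusted p under 0.05 the only one was Psph, which passed by DESeq2 (adjusted p = 0.0195) and by limma on TPM (adjusted p = 0.0437). The rapamycin change of Psph was not shown to differ between genotypes (log2 -0.52, interval -0.92 to -0.13, adjusted p = 0.121 in 9-month mice, and -0.37, adjusted p = 0.391 in 3-month mice). After rapamycin Psph in TSCmKO muscle lay below vehicle-treated controls, by -1.18 ± 0.14 at 9 months and -0.81 ± 0.14 at 3 months on the log2 scale, without overlap at either age.

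Shmt1 and Shmt2 encode the cytosolic and mitochondrial serine hydroxymethyltransferases. Shmt1 (chr11:60788104-60811718, minus strand) fell in TSCmKO muscle. At 9 months the libraries held 8.62, 8.38, 8.12, 7.48 and 5.58 CPM in 9mCON and 2.03, 3.00, 4.02, 2.71 and 3.24 CPM in 9mTSCmKO, without overlap. The log2 change was -1.34 ± 0.21 (adjusted p = 2.17e-06). At 3 months 3mCON held 4.37 to 5.66 CPM and 3mTSCmKO 2.44 to 3.14 CPM, also without overlap (log2 -0.83 ± 0.21, adjusted p = 0.00314). No rapamycin change of Shmt1 passed in TSCmKO muscle (log2 0.27, interval -0.15 to 0.69 at 9 months, and 0.43, interval 0.02 to 0.84, adjusted p = 0.135 at 3 months). The rapamycin change at 9 months was more positive in TSCmKO than in CON by 0.89 ± 0.29, which did not pass (adjusted p = 0.067) but did by DESeq2 (adjusted p = 0.0479) and limma on TPM (adjusted p = 0.0327). Shmt1 stayed below 9mCON in 9mTSCmKO+RM (log2 -1.07 ± 0.21, adjusted p = 9.58e-05). In 9mCON+RM Shmt1 held 2.97, 5.60, 4.63, 6.62 and 4.93 CPM, lower than in 9mCON by -0.62 ± 0.20 (adjusted p = 0.0374), a call lost in 7 of 10 fits that each left out 1 library. Without 9mCON+RM replicate 1 it was -0.47 (adjusted p = 0.143).

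Shmt2 (chr10:127517123-127522444, minus strand) was the least variable of the 10 genes between groups. Its group means ran from 23.2 CPM in 3mTSCmKO to 28.3 CPM in 9mCON+RM, and it was called in none of the comparisons. The 95% interval of the log2 genotype difference was -0.29 to 0.18 at 9 months and -0.25 to 0.22 at 3 months, and that of the rapamycin change in TSCmKO was -0.24 to 0.23 at 9 months. Shmt2 had 239 to 804 counts per library and Phgdh 6 to 136, and the intervals of Phgdh were the wider. Mthfd1l, with 3 to 38 counts, had an SE of 0.38 between genotypes at 9 months, against 0.46 for Phgdh. The part of depth in the width of the intervals was not tested.

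Mthfd2 (chr6:83305691-83325908, minus strand), the mitochondrial methylenetetrahydrofolate dehydrogenase and cyclohydrolase, rose in TSCmKO muscle at both ages. At 9 months the libraries held 3.37, 5.06, 2.44, 4.26 and 4.13 CPM in 9mCON and 40.9, 29.4, 38.8, 33.4 and 36.6 CPM in 9mTSCmKO. The log2 change was 3.21 ± 0.24 (adjusted p = 1.07e-13), a fold of 9.25, which ranked 98 among the 13543 genes by size. At 3 months the libraries held 3.19, 2.82, 4.63, 3.33 and 3.63 CPM in 3mCON and 27.1, 22.1, 17.9, 27.1 and 19.8 CPM in 3mTSCmKO. The groups did not overlap at either age, and the fold at 3 months was 6.40 (log2 2.68 ± 0.23, adjusted p = 2.61e-11), ranked 69 by size. Of all genes, 8.77% did not overlap with TSCmKO higher and 7.20% with TSCmKO lower at 9 months, and 10.9% and 8.65% at 3 months. The genotype difference of Mthfd2 was not shown to differ between ages (log2 0.53, interval -0.09 to 1.16, adjusted p = 0.366).

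Rapamycin lowered Mthfd2 in TSCmKO muscle without bringing it to the control level. In 9mTSCmKO+RM the libraries held 15.5, 16.7, 11.5, 15.1 and 8.78 CPM, all below 9mTSCmKO (log2 -1.41 ± 0.21, adjusted p = 3.04e-06) and all above 9mCON (fold 3.49, adjusted p = 1.11e-07). In 3mTSCmKO+RM they held 7.74, 5.38, 5.50, 9.97 and 6.64 CPM, all below 3mTSCmKO (log2 -1.69 ± 0.22, adjusted p = 2.12e-07) and all above 3mCON (fold 1.99, adjusted p = 0.00199). In control muscle rapamycin gave log2 changes of -0.12 (interval -0.60 to 0.36) at 9 months and -0.28 (interval -0.76 to 0.20) at 3 months. The difference between genotypes in the rapamycin change was -1.29 ± 0.33 in 9-month mice (adjusted p = 0.0151) and -1.41 ± 0.33 in 3-month mice (adjusted p = 0.00911). Of the 10 genes 3 were called in that interaction at 9 months, all negative, where 4.87% of all genes were called, 2.56% positive and 2.31% negative. At 3 months 1 was positive and 1 negative, where 3.45% were called, 1.36% positive and 2.09% negative. The call at 3 months was lost when 3mCON+RM replicate 5, the highest of its group at 5.06 CPM, was left out.

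Mthfd1l (chr10:3973118-4167081, plus strand), which makes formate in mitochondria, was the lowest of the 10 genes, with 3 to 38 counts per library. In 9mCON it held 0.236, 0.755, 0.487, 0.873 and 0.826 CPM and in 9mTSCmKO 0.468, 1.47, 1.73, 1.04 and 1.66 CPM. The groups overlapped, and the log2 change of 0.98 ± 0.38 just passed (adjusted p = 0.0382). It no longer did with no filter on low counts (0.96) and in 5 of 10 fits that each left out 1 library, with 0.79 (adjusted p = 0.103) without 9mCON replicate 1. At 3 months the log2 difference was 0.28 with an interval of -0.44 to 0.998. No rapamycin change was detectable at this depth, with intervals of -1.10 to 0.32 in 9-month and -0.90 to 0.51 in 3-month TSCmKO muscle.

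Aldh1l2 (chr10:83487450-83534140, minus strand), a mitochondrial enzyme that oxidizes formyl-tetrahydrofolate to carbon dioxide, fell in TSCmKO muscle, opposite to Mthfd2. In 3mCON it held 11.6, 10.6, 11.7, 9.91 and 8.62 CPM and in 3mTSCmKO 4.61, 4.31, 5.24, 7.84 and 5.04 CPM. The groups did not overlap (log2 -0.94 ± 0.18, adjusted p = 0.000157). In 3mTSCmKO+RM it held 10.2, 9.20, 9.17, 9.46 and 9.49 CPM, all above 3mTSCmKO (log2 0.80 ± 0.18, adjusted p = 0.000962), with a log2 difference from 3mCON of -0.14 (interval -0.49 to 0.21). At 9 months the fall was -0.80 ± 0.19 (adjusted p = 0.000955), from 4.37, 5.66, 8.85, 6.93 and 7.33 CPM in 9mCON to 4.01, 4.71, 3.13, 3.69 and 3.50 CPM in 9mTSCmKO, with overlap through 1 control library. Rapamycin left it there, with a change of 0.06 (interval -0.32 to 0.45) and 2.68 to 5.95 CPM in 9mTSCmKO+RM.

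The rapamycin change of Aldh1l2 in TSCmKO was thus called at 3 and not at 9 months, but the difference between the ages was not called when tested (log2 -0.74 ± 0.27, adjusted p = 0.122). None of the 10 genes was called in that comparison of the rapamycin change between ages, made after the values were seen, in which 1.91% of all genes (259 of 13543) were called. The largest difference was that of Asns at -1.30 ± 0.41 (adjusted p = 0.0771). At 3 months the rapamycin change of Aldh1l2 differed between genotypes by 0.89 ± 0.25 (adjusted p = 0.041), a call that was lost in 15 of 20 fits that each left out 1 library, with no filter on low counts and by limma on TPM. In control muscle Aldh1l2 was lower at 9 than at 3 months by -0.66 ± 0.18, which did not pass (adjusted p = 0.0575). None of the 10 genes passed in that comparison, where 1.02% of all genes did (0.679% higher and 0.340% lower), while 3 had an unadjusted p under 0.05 and Aldh1l2 passed by DESeq2 (adjusted p = 0.0224). Without 9mCON replicate 5 it passed (log2 -0.71, adjusted p = 0.0281), as did Psph (0.48) and Shmt1 (0.68), both higher at 9 months, and it also passed without 9mCON replicate 3 (-0.78) or 3mCON replicate 5 (-0.72).

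Asns (chr6:7675169-7693254, minus strand), which makes asparagine from aspartate and glutamine, rose in TSCmKO muscle at 9 months. The libraries held 2.01, 1.66, 1.87, 1.20 and 1.65 CPM in 9mCON and 3.80, 8.24, 12.2, 6.75 and 6.30 CPM in 9mTSCmKO. The groups did not overlap, and the fold was 4.44 (log2 2.15 ± 0.28, adjusted p = 1.07e-07). At 3 months 3mCON held 1.51, 0.910, 2.19, 1.28 and 2.53 CPM and 3mTSCmKO 2.44, 2.87, 2.42, 4.51 and 1.22 CPM. The log2 difference of 0.68 ± 0.28 did not pass (adjusted p = 0.0875), and the groups overlapped. Without 3mTSCmKO replicate 5, the lowest of its group, it was 0.88 and passed (adjusted p = 0.0226), as it did without 3mCON replicate 5 (0.84, adjusted p = 0.0463), and without 3mTSCmKO replicate 4, the highest of its group, it was 0.41 (adjusted p = 0.365). The genotype difference was larger at 9 months by 1.47 ± 0.40 (interaction, adjusted p = 0.0248), a call that was lost in 5 of 20 fits that each left out 1 library and in the fit of only these groups.

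Rapamycin lowered Asns in 9mTSCmKO to 0.782, 1.56, 1.58, 0.965 and 1.89 CPM, a change of -2.43 ± 0.29 (adjusted p = 3.53e-08), which ranked 55 of 13543 by size. Of these 5 libraries 3 lay within the range of 9mCON and 2 below it, with a log2 difference from 9mCON of -0.28 (interval -0.88 to 0.32). In 3mTSCmKO+RM Asns held 0.881 to 1.53 CPM (log2 -1.14 ± 0.29 from 3mTSCmKO, adjusted p = 0.00303). In control muscle it was 0.823 to 1.15 CPM in 9mCON+RM, below every 9mCON library, but the change of -0.76 did not pass (adjusted p = 0.127). Psat1 and Asns were the 2 genes of the 10 that lay entirely below controls in that comparison, as 3.74% of all genes did, while 2.90% lay entirely above. The rapamycin change at 9 months differed between genotypes by -1.68 ± 0.43 (adjusted p = 0.0174).

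Pycr1 (chr11:120635712-120643769, minus strand), the mitochondrial pyrroline-5-carboxylate reductase of proline synthesis, fell in TSCmKO muscle. In 9mCON it held 2.89, 1.74, 2.76, 2.89 and 3.25 CPM and in 9mTSCmKO 1.92, 1.47, 2.12, 1.62 and 2.23 CPM. The groups overlapped through 1 low control library, and the change was -0.53 ± 0.19 (adjusted p = 0.0221). At 3 months it was -0.59 ± 0.18 (adjusted p = 0.0159), also with overlap. The call was lost in 4 of 10 fits that each left out 1 library at 9 months and in 3 of 10 at 3 months, and at 9 months also by limma on TPM (-0.28) and in the fit of only these groups (-0.51). The rise with rapamycin kept its call in all 10 such fits at each age. In 9mTSCmKO+RM Pycr1 held 3.05, 3.98, 3.75, 3.86 and 3.84 CPM, above every 9mTSCmKO library (log2 0.98 ± 0.18, adjusted p = 7.82e-05), and in 3mTSCmKO+RM 2.91 to 4.08 CPM (log2 0.65 ± 0.18, adjusted p = 0.00643). In 9mCON+RM the change was 0.48 ± 0.18 (adjusted p = 0.0761), and the difference between genotypes was not called (0.49, interval -0.01 to 0.997).

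**Figure D3:**
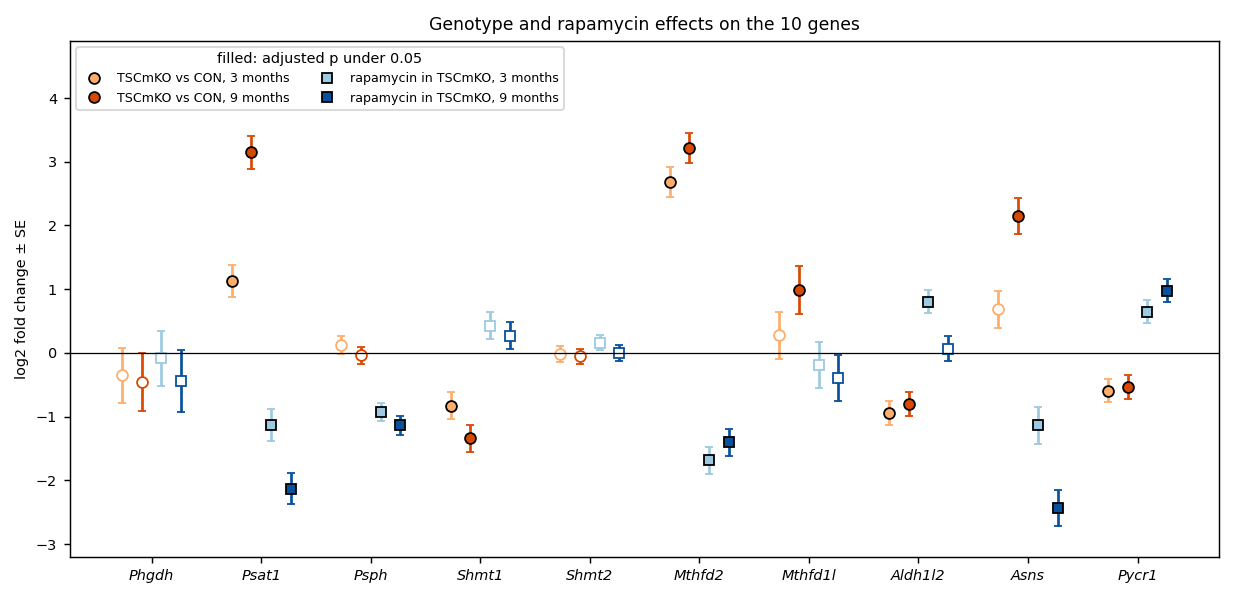
Log2 fold change ± SE (vertical axis) of the 10 genes (horizontal axis) for TSCmKO against CON (circles) and rapamycin against vehicle in TSCmKO (squares) at 3 and 9 months, filled where the adjusted p was under 0.05. Mthfd2 and Psat1 lie above 0 for genotype and below 0 for rapamycin at both ages, Psph is near 0 for genotype and at -0.93 and -1.14 for rapamycin, and Pycr1 has the opposite signs.

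Set beside vehicle-treated controls, rapamycin-treated TSCmKO muscle at 9 months differed in 5 of the 10 genes, where 31.9% of all genes were called, 15.7% higher and 16.2% lower. Mthfd2 and Psat1 were higher and Psph, Shmt1 and Aldh1l2 lower. At 3 months 2 differed, Mthfd2 higher and Psph lower, where 16.7% of all genes were called, 8.98% higher and 7.71% lower. Of all genes, 9.31% lay entirely above and 7.51% entirely below 9mCON, and 9.72% and 9.34% above and below 3mCON. With age in vehicle-treated TSCmKO muscle 3 were higher at 9 than at 3 months, Psat1 by 1.58 ± 0.23, Asns by 1.46 ± 0.27 and Mthfd2 by 0.65 ± 0.21 on the log2 scale, and Aldh1l2 was lower by -0.52 ± 0.19, where 37.4% of all genes were called, 19.1% higher and 18.3% lower. With insert size as a term in the fit, Mthfd2 (0.42, adjusted p = 0.33) and Aldh1l2 (-0.64, adjusted p = 0.082) did not pass in that comparison. By limma on TPM both also lost their calls (0.33 and -0.37). The call of Aldh1l2 was lost as well in the fit of only these groups (-0.51) and in 3 of 10 fits that each left out 1 library.

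Slow fiber markers moved with the same groups. All 5 were higher in 9mTSCmKO than in 9mCON, and their summed level was 111 to 160 TPM in 9mCON and 1371 to 3312 TPM in 9mTSCmKO. It was 748 to 1319 TPM in 9mTSCmKO+RM, where 2 of 5 were lower than in 9mTSCmKO. Of 7 fast-fiber markers 3 were lower in 9mTSCmKO, with sums of 158457 to 177432 TPM in 9mCON and 123421 to 135758 TPM in 9mTSCmKO that did not overlap. With rapamycin 3 of the 7 rose and 1 fell in 9mTSCmKO, to sums of 137865 to 160711 TPM. In that comparison 2 of 4 myogenic markers were also higher and 1 of 6 macrophage, 1 of 5 Schwann cell and both tested cell cycle markers lower, with 1 of 5 endothelial markers higher and 1 lower. Of 5 fibroblast markers 3 were lower in 9mTSCmKO, with sums of 592 to 1211 TPM in 9mCON and 255 to 633 TPM in 9mTSCmKO. Of 6 macrophage markers 1 was higher, with sums of 45.9 to 139 TPM and 56.0 to 98.5 TPM. Also lower were 3 of 4 tendon, 2 of 5 adipocyte, 2 of 5 Schwann cell and 2 of 5 endothelial markers, while 1 of 2 tested cell cycle markers was higher and of 4 myogenic markers 1 was higher and 1 lower. In 9mTSCmKO+RM against 9mCON 4 of 5 fibroblast, 3 of 6 macrophage, 3 of 4 tendon, 2 of 5 Schwann cell and 1 of 5 adipocyte markers were lower, all 5 slow fiber and 1 of 4 myogenic markers higher, and of 7 fast-fiber markers 1 was higher and 1 lower. At 3 months 1 slow fiber marker was higher in 3mTSCmKO and 1 of 4 tendon markers lower, and none of the fast-fiber, fibroblast and macrophage markers passed. In 3mTSCmKO+RM against 3mTSCmKO 3 of 7 fast-fiber, 2 of 6 macrophage, 1 of 5 fibroblast, 1 of 4 tendon and 1 of 4 myogenic markers were higher, and 1 fast-fiber and 1 slow fiber marker lower. In 9mTSCmKO against 3mTSCmKO 4 of 5 slow fiber, 1 of 4 myogenic, 1 of 5 Schwann cell and 1 of 2 tested cell cycle markers were higher. Lower there were 2 of 7 fast-fiber, 3 of 5 fibroblast, 4 of 5 adipocyte, 3 of 5 endothelial and all 3 erythroid markers, with 1 tendon marker higher and 3 lower and 1 macrophage marker higher and 1 lower. In 3mTSCmKO+RM against 3mCON 2 of 6 macrophage, 1 of 4 myogenic and 1 of 4 tendon markers were higher, and of 7 fast-fiber markers 1 was higher and 1 lower. In the genotype by age interaction 2 of 5 slow fiber markers were positive, and 1 of 7 fast-fiber and 1 of 3 erythroid markers negative. In rapamycin by genotype 1 of 4 tendon markers was positive at 3 months and no marker was called at 9 months. Of 5 listed cell cycle markers 1 was at 0 in all libraries of each of 4 groups, and no other marker was at 0 in all libraries of a group. The part of other fibers and cells in the results above was not tested.

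Promoter sequences from RefSeq (build GRCm38.p6, 250 bases before to 50 after each start) were available for 9 of the 10 genes, all but Aldh1l2. They were searched on both strands for TGATGNAA, the core of the amino acid response element that ATF4 binds with partner factors, and for CACGTG, the E-box bound by MYC and related factors. TGATGNAA was in 3.97% of 32851 promoters and CACGTG in 7.15%. Counted by gene, they were in the promoters of 4.51% and 8.09% of 27025 genes. Among the 10 genes TGATGNAA was found in the promoters of Asns and Pycr1 and CACGTG in none, so that no match overlapped another. The 2 windows are shown because Asns fell and Pycr1 rose with rapamycin while both promoters hold the pattern TGATGNAA. Each runs 5′ to 3′ along the gene, with the match in capitals.
Asns, chr6:7693214-7693243, minus strand: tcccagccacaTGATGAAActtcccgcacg
Pycr1, chr11:120643833-120643862, minus strand: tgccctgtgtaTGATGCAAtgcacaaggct
The Asns match starts 23 bases before the RefSeq start, inside the longer GENCODE gene model, and that of Pycr1 starts 103 bases before it. A match is a run of letters and not a measured site, and its absence in the other promoters covers only these windows.

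Other genes of the surrounding pathways were taken from lists by function. Their counts stand beside 37.9% of all genes called at 9 months (19.1% higher and 18.9% lower) and 19.8% at 3 months. Of 18 tested genes of the ATF4 and amino acid response, 13 were higher and 1 lower in 9mTSCmKO than in 9mCON (median log2 1.05), and 11 were higher and none lower at 3 months (median 0.65). With rapamycin none rose and 11 fell in 9mTSCmKO (median -0.76), and none rose and 9 fell in 3mTSCmKO (median -0.64). Slc7a5, a subunit of a large neutral amino acid transporter, was 2.83 ± 0.768 CPM in 9mCON and 13.1 ± 2.19 CPM in 9mTSCmKO (log2 2.19 ± 0.20, adjusted p = 4.13e-11). Its fall with rapamycin, to 9.54 ± 2.23 CPM in 9mTSCmKO+RM, did not pass, but did by DESeq2 (log2 -0.46, adjusted p = 0.0482). Gdf15, a stress-induced secreted factor, was 2.48 to 10.4 CPM in 9mTSCmKO and at most 3 counts per library in 9mCON, so that its fold is not given. Chac1, which degrades glutathione, was lower in 9mTSCmKO (log2 -1.12 ± 0.34, adjusted p = 0.00938). Transcripts of Atf4 itself were 183 ± 47.0 CPM in 9mCON and 219 ± 38.6 CPM in 9mTSCmKO, which did not pass (log2 0.26, adjusted p = 0.131), and the protein was not measured here.

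**Figure D4:**
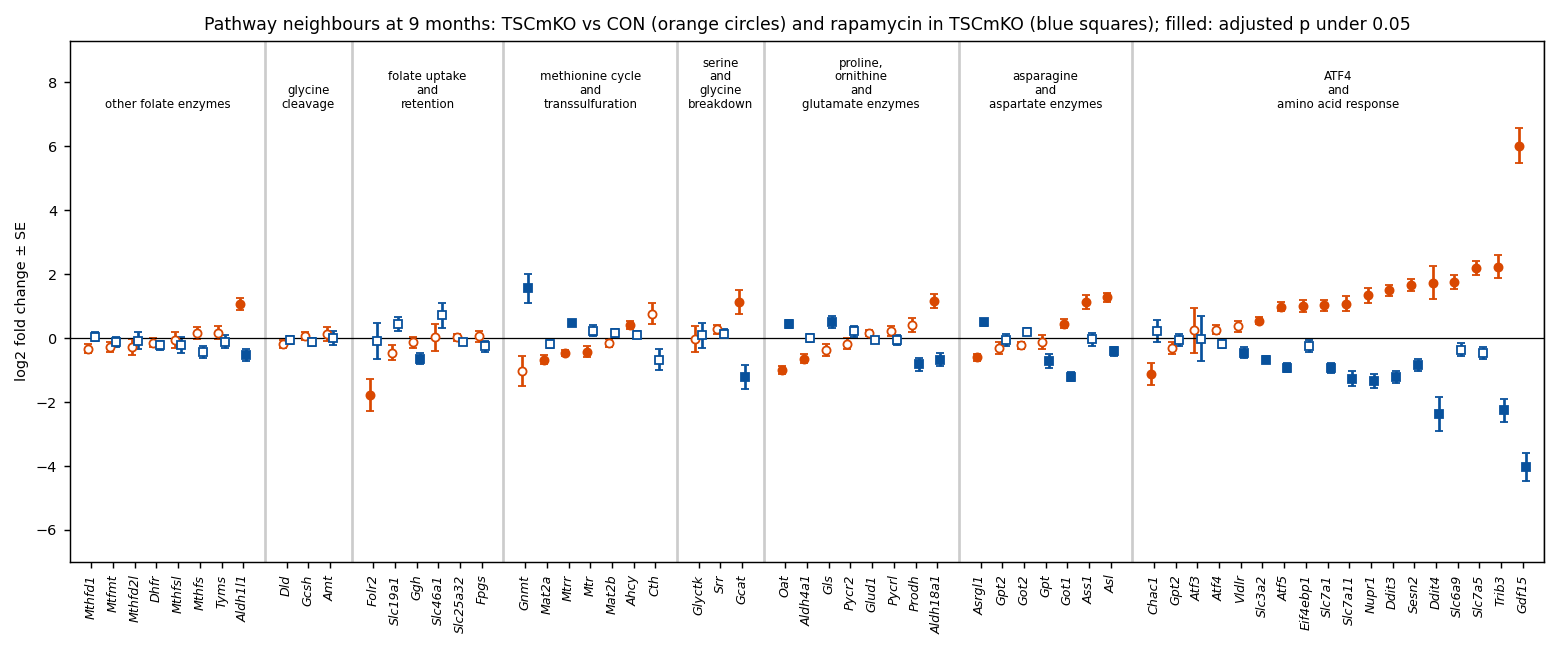
Log2 fold change ± SE (vertical axis) of tested genes of 8 pathway lists (horizontal axis, 1 gene not shown) at 9 months, for TSCmKO against CON (orange circles) and rapamycin in TSCmKO (blue squares), filled where the adjusted p was under 0.05. In the ATF4 list 13 of 18 circles are filled above 0 and 11 squares below it, and the fitted value of Gdf15 rests on at most 3 counts per control library.

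Among the other folate enzymes Aldh1l1, the cytosolic counterpart of Aldh1l2, went the other way from it, from 6.56 ± 2.58 CPM in 9mCON to 13.7 ± 2.80 CPM in 9mTSCmKO (log2 1.06 ± 0.18, adjusted p = 1.57e-05). None of 3 glycine cleavage genes passed at 9 months, and 1 was lower at 3 months, a call lost with no filter on low counts and in 7 of 10 fits that each left out 1 library. Of 6 genes for folate uptake and retention, Folr2, a folate receptor also found on resident macrophages, was lower (log2 -1.77 ± 0.50, adjusted p = 0.00505), and without 9mCON replicate 5 it was not called (-1.25, adjusted p = 0.0573).

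Of 7 genes of the methionine cycle and transsulfuration 1 was higher and 3 lower at 9 months (4 of 7 called, beside 37.9% of all genes), and with 1 library left out at a time 1 to 2 were higher and 2 to 3 lower. Ahcy, which clears S-adenosylhomocysteine, was higher by 0.41 ± 0.11, and Mat2a, which makes S-adenosylmethionine, was lower by -0.67 ± 0.14 (adjusted p = 0.000132). Mtrr, which reactivates methionine synthase, was lower by -0.47 ± 0.10 and rose with rapamycin in 9mTSCmKO by 0.47 (adjusted p = 0.000204 and 0.00028). In control muscle Mtrr was also higher with rapamycin by mean, at 30.5 ± 4.42 CPM in 9mCON and 39.7 ± 2.53 CPM in 9mCON+RM. Of 3 genes of serine and glycine breakdown Gcat, which cleaves a threonine-derived intermediate to glycine, was higher (log2 1.12 ± 0.37, adjusted p = 0.0153). That call rested on 9mTSCmKO replicate 1 at 80.3 CPM, without which the difference was 0.34 (adjusted p = 0.382).

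Of 8 genes of proline, ornithine and glutamate metabolism 1 was higher and 2 lower at 9 months (3 of 8 called, near the 37.9% of all genes). Aldh18a1, which makes the substrate of Pycr1 from glutamate, was 4.01 ± 0.634 CPM in 9mCON and 9.00 ± 0.635 CPM in 9mTSCmKO (log2 1.16 ± 0.21, adjusted p = 2.66e-05), opposite in direction to Pycr1. Oat, which makes the same intermediate from ornithine, was lower by -0.999 ± 0.116 (adjusted p = 7.21e-09), and Aldh4a1, which degrades it, by -0.64 ± 0.14. Of 7 genes of asparagine and aspartate metabolism 3 were higher and 1 lower at 9 months, and 1 was higher and 3 lower at 3 months. Ass1 and Asl, consecutive enzymes that turn citrulline and aspartate into arginine, were higher by 1.12 ± 0.23 and 1.27 ± 0.14, and Asrgl1, which cleaves asparagine, was lower by -0.60 ± 0.11 (adjusted p = 4.68e-05). At 3 months Asl was also higher (log2 0.95), Asrgl1 also lower (-0.55), and Ass1 did not pass (0.13, adjusted p = 0.727).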

How the data were processed

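Per the labels and the study's methods, the authors isolated poly(A) RNA, made directional single-end libraries, trimmed them with Cutadapt 1.9.1 and assigned reads with kallisto 0.43.1 to Ensembl transcripts of GRCm38, sharing a read equally among the transcripts it hit. They deposited estimated counts per gene, which were whole numbers (rounding changed 0 values), and TPM. No per-sample column remained without a label.

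Groups came from the labels. Genes with at least 1 CPM in at least 5 libraries were tested with edgeR 4.0.16 (TMM factors, quasi-likelihood test, all 40 libraries in 1 fit, 8 group means, no covariates) in R 4.3.3, in 10 pairwise and 3 interaction contrasts, with Benjamini-Hochberg adjustment over 13543 genes and a threshold of 0.05. CPM are TMM-scaled. The 95% intervals are the fitted log2 change and its SE with a normal factor. DESeq2 1.42.0, limma 3.58.1 on log2(TPM + 1), other factors, no filter, own groups, insert size, a replicate block and leaving out each library were the alternatives. Replicates are separate mice.

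The 10 genes, the pathway lists and the markers were chosen with earlier results of these data known. All 10 genes were named, and in each list up to 2 higher and 2 lower genes with the smallest adjusted p in 9mTSCmKO against 9mCON, and Atf4. One gene of these lists is not reported here. For likeness, the 3 genes with the highest Pearson r over the 8 group means were taken from genes with a mean of at least 5 CPM. Of the 31-base words of the 10 genes, at most 1.48% (Pycr1) occurred in transcripts of the other genes listed in the data. Reads shared with those genes thus touch these counts little, while genes not listed there were not compared. Within groups, count differences between replicates exceeded counting noise 10.4-fold or more, and no library was a duplicate.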

Additional observations from a re-analysis of the deposited data

Results flagged for a closer look

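Each of the 80 sets of 5 values (10 genes in 8 groups) was checked for a highest or lowest library that stood apart from the others, by Dixon's ratio with a 95% critical value of 0.71. There were 7 such libraries, where chance gives about 1 in 20 sets. Phgdh was high in 3mTSCmKO+RM replicate 5 (3.74 CPM, the next library 1.89). Psat1 was high in 3mTSCmKO+RM replicate 4 (3.30 CPM, next 1.66). Shmt2 was high in 3mCON replicate 5 (28.9 CPM, next 23.3) and in 9mTSCmKO+RM replicate 1 (31.9 CPM, next 23.7). Aldh1l2 was high in 3mTSCmKO replicate 4 (7.84 CPM, next 5.24). Mthfd1l was low in 3mTSCmKO replicate 2 (0.784 CPM, next 1.04), and Pycr1 was low in 9mTSCmKO+RM replicate 1 (3.05 CPM, next 3.75).

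An effect differed between groups, by the interaction term of the edgeR fit, in 7 cases. The genotype difference was larger at 9 than at 3 months for Psat1 (2.02 on the log2 scale) and Asns (1.47). The rapamycin change at 9 months was more negative in TSCmKO than in CON for Asns (-1.68), Psat1 (-1.40) and Mthfd2 (-1.29). At 3 months it was more negative in TSCmKO for Mthfd2 (-1.41) and more positive for Aldh1l2 (0.89).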

How the results depend on the processing

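Beside leaving out libraries, 8 settings were tried on the values of the 10 genes. In fits of only the groups of the comparison, a gene under the filter on low counts was not tested and gave no value. None reversed a called value, and 27 of 1034 values crossed the threshold. The calls of Mthfd2, Psat1, Asns, Shmt1 and Aldh1l2 between genotypes and of Mthfd2, Psat1, Asns, Psph and Pycr1 with rapamycin in TSCmKO held under all 8 at 9 months. Some counts of called genes moved by over 1.5 times. For 9mCON+RM against 9mCON, 2 became 1 with no filter, 0 with only the groups of the comparison and 1 with a replicate block. For 3mCON+RM against 3mCON, 0 became 1 (Psph) by DESeq2, with upper-quartile factors, only the groups of the comparison, a replicate block and limma on TPM. For 9mCON against 3mCON, 0 became 1 (Aldh1l2) by DESeq2 and limma. For 9mTSCmKO against 3mTSCmKO, 4 became 2 with insert size as a term and 2 by limma. For genotype by age, 2 became 1 with only the groups of the comparison. For rapamycin by genotype at 3 months, 2 became 1 with no filter and 1 by limma. Smaller moves were from 7 to 6 (no filter, limma) or 5 (only the groups of the comparison, where Mthfd1l did not pass the filter on low counts and was not tested) for 9mTSCmKO against 9mCON, from 5 to 6 (DESeq2, only the groups of the comparison) for 9mTSCmKO+RM against 9mCON, from 4 to 3 (only the groups of the comparison) for 9mTSCmKO against 3mTSCmKO, and from 3 to 4 (Shmt1, by DESeq2 and limma) or 2 (insert size) for rapamycin by genotype at 9 months. The causes were not tested. The library without an insert size, 9mTSCmKO+RM replicate 5, was dropped from the fit with insert size.

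Leaving out 1 library at a time, the counts ran from 5 to 7 (9mTSCmKO against 9mCON), 4 to 6 (3mTSCmKO against 3mCON), 5 to 5 and 6 to 6 (rapamycin in TSCmKO at 9 and 3 months), 1 to 2 and 0 to 0 (rapamycin in CON), 5 to 6 and 2 to 2 (rapamycin-treated TSCmKO against vehicle-treated CON), 0 to 3 (9mCON against 3mCON), 3 to 4 (9mTSCmKO against 3mTSCmKO), 1 to 2 (genotype by age), and 2 to 4 and 1 to 2 (rapamycin by genotype at 9 and 3 months). The list alternatives were added after seeing the data, and the ATF4 list held 12 to 14 higher genes at 9 months when 1 library was left out.

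Over all genes, fitting only the groups of the comparison called 2647 genes instead of 5133 between genotypes at 9 months and 2544 instead of 4410 for rapamycin in 9mTSCmKO. At 3 months the same setting called more, with 3667 instead of 2676 between genotypes and 4211 instead of 3196 for rapamycin in 3mTSCmKO. It called 419 instead of 92 in 3mCON+RM against 3mCON, and 1194 instead of 467 for rapamycin by genotype at 3 months. Insert size as a term called 1701 instead of 5064 between ages in TSCmKO. Deviations of same-numbered replicates had correlations of -0.42 to 0.36. Pairing of the mice by number was not evident from these values, which cannot exclude it. The replicate block changed the call of Shmt1 in 9mCON+RM (adjusted p = 0.0505) and of Psph in 3mCON+RM (adjusted p = 0.0391) and no other call of the 10 genes. Depth was lowest for Mthfd1l, at 3 to 38 counts per library. The intervals cover the fitted spread between mice.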

Other observations

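The genes whose 8 group means were most like those of each of the 10 genes are given as a description over 8 means, each from 5 libraries, among 9638 or 9639 genes. For Mthfd2 they were Dhx32, Fam214b and Sesn2 (Pearson r 0.99 each), and 353 genes had r above 0.9. For Psat1 they were Nt5c2, Cdc40 and Cttn (r 0.99 each), and for Asns Ufd1, Mad2l1bp and Slc2a1, the main glucose transporter of many cells (r 0.98 to 0.99). For Psph they were Cptp, Tarbp2 and Otub2 (r 0.976 to 0.995), and for Pycr1 Tm9sf4, Txlnb and Twnk (r 0.99 each). Shmt2 had 7 genes with r above 0.9, the fewest of the 10 genes, and for it they were Upf1, Itgb5 and Tpst2 (r 0.94 to 0.96). For Phgdh they were Fbln5, Dock11 and Prrg3 (r 0.98 to 0.99), for Shmt1 Slc28a2, Csrp1 and Fam118a (r 0.97 each), for Mthfd1l Trp53inp1, Hps3 and Msh6 (r 0.94 to 0.95), and for Aldh1l2 Pcdh1, AI480526 and Dgke (r 0.97 to 0.98).

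Among the 10 genes themselves, the group means of Psat1 and Asns had r = 0.94 and those of Psat1 and Mthfd2 r = 0.92, while Asns and Pycr1 had r = -0.91. Phgdh and Psat1, which work next to each other in the same chain, had r = -0.25. These values describe 8 means that share their libraries.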
